A study of Mus musculus with 9 samples.

Results

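Wnt signalling in the developing and the adult mouse pituitary was followed through 49 genes of the 55450 in the count files. The members are the protein coding genes of the GENCODE M21 annotation whose symbol starts with Wnt, Fzd, Sfrp, Dkk or Rspo followed by a digit, together with *Axin2*, *Lef1*, *Tcf7*, *Tcf7l1*, *Tcf7l2*, *Lgr4*, *Lgr5* and *Lgr6*. They comprise 19 Wnt ligands, 4 R-spondins, 10 Frizzled receptors, 3 Lgr receptors, 4 secreted Frizzled-related proteins (Sfrp), 4 Dickkopf proteins (Dkk) and 5 intracellular effectors. All 49 are accounted for here, and 42 of them reached the mean count of 5 over the 9 libraries that a gene needed to be tested. Of the tested members, *Dkk1* and *Rspo1* averaged 5 counts in the embryos alone, and *Wnt2*, *Wnt10a*, *Wnt16* and *Rspo4* in the adults alone. The 7 that were not tested are *Wnt1*, *Wnt3a*, *Wnt7a*, *Wnt8a*, *Wnt8b*, *Wnt10b* and *Dkk4*.

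The study sequenced poly(A) RNA of Rathke's pouch, the epithelial primordium of the anterior pituitary, from 7 Sox2 Egfp/+ embryos at embryonic day 13.5, and of the pituitary of 2 adult mice at postnatal week 8 after the posterior lobe had been taken away. Both groups were on a mixed 129Sv/c57BL6J background and received no treatment named in the labels. Each embryo carried an Egfp allele at the Sox2 locus, so it had a single intact Sox2 copy; the genotype of the adults is not given in the sources used here. Both stages held animals of each sex, which the labels do not assign to libraries. The adult samples hold the anterior and the intermediate lobe, and a pouch dissected at this age can carry the tissues that touch it, so the comparison is between dissected tissues and not between matched cell types. Gene counts summed to between 16738863 and 28537311 read pairs in the embryos and to 36421545 and 31191117 in adults 1 and 2. Levels are given as CPM, the counts per 1000000 counted read pairs after TMM scaling, and a gene was called when its adjusted p was below 0.05 over all tested genes and its fold change was above 4.

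Wnt proteins are secreted, lipid-modified signals that bind Frizzled receptors together with Lrp5 or Lrp6. In the canonical branch this stabilises beta-catenin, which enters the nucleus and activates genes with the Tcf/Lef factors; other branches steer cell polarity and calcium release. R-spondins bind Lgr receptors and keep Frizzled proteins on the cell surface, whereas Sfrp proteins catch ligands and Dkk proteins block Lrp5 and Lrp6. In the embryonic pituitary, Wnt signals from the ventral diencephalon and from the pouch itself take part in the growth and patterning of the gland.

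The tissue labels were checked against marker genes. The pouch genes *Pitx1*, *Lhx3* and *Hesx1* were counted in every embryo, *Hesx1* between 11.0 and 40.3 CPM against 0.339 and 0.562 CPM in the adults. Of 8 hormone cell genes 7 were adult high, with a sum of 872 to 1920 CPM in the embryos, where *Cga* led, against 152540 and 160060 CPM in the adults, which held *Gh* (53441 and 63814 CPM) and *Prl* (62090 and 29377 CPM). Embryos 1 and 4 stood apart from the other embryos: 5 erythroid genes, led by the embryonic globin *Hbb-y*, took 11.0% and 13.2% of their counted read pairs. The remaining 5 embryos held from 0.639% to 1.56%, and the adults 0.0330% and 0.0709%. Of these 5 genes, 4 were called embryo high, and 2 of the 4 after the length and GC correction. The share of read pairs assigned to a gene was 59.7% and 62.8% in embryos 1 and 4, 73.9% to 80.0% in the remaining embryos and 84.0% and 83.7% in adults 1 and 2. Values without embryos 1 and 4 are therefore given for several members.

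Markers of neighbouring tissues also differed between the stages. Of 8 markers of the ventral diencephalon and posterior lobe, 5 were higher in the embryo and 2, *Avp* and *Oxt*, in the adult. Their summed level was 81.2, 245, 109, 81.3, 145, 161 and 169 CPM in embryos 1 to 7 and 14.9 and 22.9 CPM in the adults, with *Rax* the most abundant in the embryo and *Fgf10* in the adult. *Avp* had no count in any embryo and was at 1.74 and 3.43 CPM in the adults. Of 9 mesenchyme and connective tissue markers, 6 were higher in the embryo and *Prrx1* in the adult, with sums of 1910, 2115, 685, 1073, 1705, 1660 and 2374 CPM in the embryos and 754 and 506 CPM in the adults; *Col3a1* led the list in the embryo and *Col1a2* in the adult. Of 3 cartilage markers, 2 were embryo high and summed levels were 156 to 365 CPM in the embryos against 14.1 and 7.73 CPM. *Col2a1* led this list at both stages. It ranged from 155 to 362 CPM in the embryos against 13.9 and 7.53 CPM in the adults, while *Matn1* was at 0.0641 CPM at the embryo median and at 0 in both adults. Of 6 endothelial markers 1, *Emcn*, was embryo high, and of 5 macrophage markers 1, *Ptprc*, was adult high. The length and GC correction ended the calls of *Ptprc* (log2 fold change -2.91, then -0.74) and *Prrx1* (-2.82, then -1.39) and called *Fgf10* embryo high (2.26). Endothelial markers summed to 139 to 502 CPM in the embryos and to 172 and 112 CPM in the adults, led by *Emcn* and *Plvap*. Macrophage markers summed to 94.4 to 245 CPM against 83.4 and 131 CPM, led by *C1qb* and *Csf1r*. The part of these tissues in the results was not tested. In bulk RNA of this kind, fewer cells of a type and less RNA per cell cannot be told apart.

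In the comparison of embryo with adult, 9 of the 42 tested members were embryo high and 6 were adult high; the same calls took in 11.3% and 14.6% of all 19371 tested genes. The adult high share of the members, 14.3%, was close to that of all genes, and the embryo high share was 21.4%. Some called members reached the mean count for testing only in the stage where they were high. These were *Dkk1* and *Rspo1* in the embryo, and *Wnt2*, *Wnt10a* and *Rspo4* in the adult. Their calls could hardly have gone the other way, and the shares include them. A further 8 members were past the adjusted p alone on the embryo side and 3 on the adult side, with fold changes of 4 or less. Over all 19371 tested genes, 9948 were past the adjusted p, and 5001 of them were called. The median log2 fold change of the tested members, embryo over adult, was 0.89, against -0.04 over all tested genes. Setting *Wnt10a* and *Dkk1*, which had no count in a stage, at their lower bounds could not move this median. Their values stay on the same side of it. The classes did not move as blocks: the ligands, the R-spondins and the Sfrp proteins each held members called in opposite directions. Among the R-spondins these were *Rspo1* and *Rspo4*, each tested through a single stage. With embryos 1 and 4 left out, 12 members were embryo high and 6 adult high: all 15 calls of the full comparison were kept, and *Wnt7a*, *Wnt9b* and *Fzd10* were added. The calls over all genes also went up, from 5001 to 5401.

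**Figure D1:**
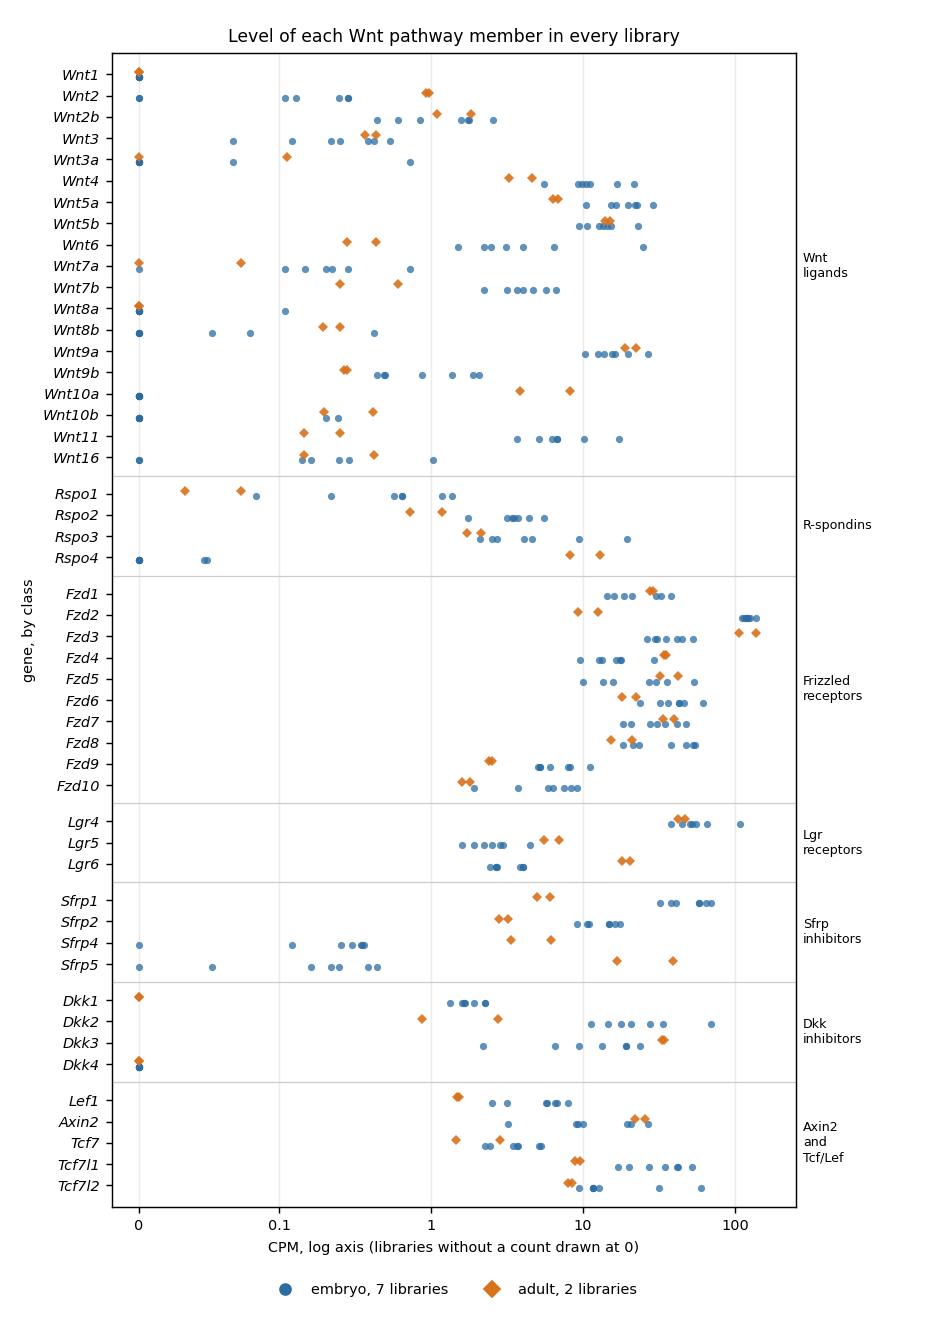
Level of each of the 49 members in the 7 embryo libraries (circles) and the 2 adult libraries (diamonds), in CPM on a log axis, grouped by class; libraries without a count are drawn at 0. *Fzd2*, *Sfrp1* and *Dkk2* lie to the right in every embryo and *Rspo4*, *Sfrp5* and *Wnt10a* in both adults, while *Wnt5b*, *Wnt9a* and *Fzd7* overlap.

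Among the 19 Wnt ligands, *Wnt6*, *Wnt7b* and *Wnt11* were embryo high, *Wnt2* and *Wnt10a* were adult high, 8 were tested without a call and 6 were not tested. The same pair of ligands had the highest mean levels per kb of exon at both stages, and neither passed the test between them; in embryo 1 *Wnt6* was above both. *Wnt5b*, a ligand mostly linked to non-canonical signalling, was at 9.42 CPM in the lowest embryo, 13.6 at the median and 23.0 in the highest, against 15.0 and 13.9 CPM in the adults (log2 fold change -0.04 ± 0.34 SE, edgeR adjusted p = 0.938). *Wnt9a*, a ligand known from joint and skeletal development, was at 10.3 CPM in the lowest embryo, 15.4 at the median and 26.6 in the highest, against 22.4 and 18.8 CPM in the adults (log2 fold change -0.33 ± 0.34 SE, edgeR adjusted p = 0.428). The adult values of both genes lay within the embryo range. Per kb of exon, *Wnt5b* and *Wnt9a* were at 5.33 ± 1.66 and 4.91 ± 1.62 CPM in the embryos (SD, n = 7) and at 5.46 ± 0.289 and 6.19 ± 0.763 in the adults (SD, n = 2).

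*Wnt6* and *Wnt10a*, which lie next to each other on chromosome 1, were called in opposite directions. The genes sit on the same strand within chr1:74771892-74804179 (GRCm38), with 6193 bases and no other protein coding gene between them. *Wnt6*, a ligand known from epithelia such as the surface ectoderm, was at 1.50 CPM in the lowest embryo, 3.10 at the median and 24.8 in the highest, against 0.436 and 0.281 CPM in the adults (log2 fold change 4.12 ± 1.16 (SE), edgeR adjusted p = 0.00854). Every embryo lay above both adults, but embryo 1 alone reached the top value and the next embryo was at 6.48 CPM. Without embryos 1 and 4 the log2 fold change of *Wnt6* was 3.21 (edgeR adjusted p = 0.00164). Without adult 1 or adult 2 it was 4.45 or 3.83, but *Wnt6* missed the adjusted p, which ended the call. Without embryo 1 alone the log2 fold change was 3.23. *Wnt10a*, a canonical ligand with roles in teeth, hair and skin, had no count in any embryo and 158 and 292 counts in the adults, 3.83 and 8.21 CPM. Against a floor of 3 counts per library, taken in the shallowest embryo, *Wnt10a* was at least 27.4-fold higher in the adult (edgeR adjusted p = 4.77e-05). Against adult 1 alone, the lower of the adults, the bound was 17.4-fold. Floors and counting intervals cover counting error only.

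*Wnt11*, a non-canonical ligand with roles in cell movement, was at 3.67 CPM in the lowest embryo, 6.74 at the median and 17.2 in the highest, against 0.145 and 0.253 CPM in the adults (log2 fold change 5.31 ± 0.76 (SE), edgeR adjusted p = 7.53e-05). Embryo 2 was highest and every embryo lay far above both adults. *Wnt7b*, a ligand with roles in the lung and the nervous system, ranged from 2.25 to 6.63 CPM in the embryos and was at 0.606 and 0.253 CPM in the adults (log2 fold change 3.30, 4.04 without adult 1 and 2.80 without adult 2). *Wnt2* was low at both stages, 0 to 0.284 CPM in the embryos and 0.969 and 0.927 CPM in the adults, and its call was lost without either adult, without embryo 5 or without embryo 7, where the edgeR adjusted p was 0.143, 0.136, 0.0606 and 0.0553 (0.0109 to 0.143 over all alternatives). The DESeq2 test did not call it either, with an adjusted p of 0.0589. The log2 fold change of -2.64 stayed between -2.69 and -2.57 in these fits. With the replicate number as a block it was -7.82. Embryos 1 and 2, which share that block with the adults, held no *Wnt2* count. *Wnt4* and *Wnt5a*, ligands active in many organ primordia, were higher in every embryo than in either adult without reaching the fold of 4. *Wnt4* ranged from 5.50 to 21.6 CPM in the embryos against 3.27 and 4.58 CPM, a log2 fold change of 1.61 (edgeR adjusted p = 0.0136), and 1.26 without embryos 1 and 4, its highest embryos. *Wnt5a* ranged from 10.5 to 28.9 CPM against 6.86 and 6.29 CPM, a log2 fold change of 1.56 (edgeR adjusted p = 0.00415). That change became 2.35 and passed the fold once exon length and GC content were corrected for. With the replicate number as a block, *Wnt4* (1.52) and *Wnt5a* (1.26) missed the adjusted p. *Wnt4* also missed it without adult 1 (1.37) or adult 2 (1.86), and *Wnt5a* without adult 2 (1.48).

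The remaining ligands had low levels. *Wnt2b*, *Wnt3*, *Wnt9b* and *Wnt16* were tested without a call, and the highest level among them in any library was 2.57 CPM, for *Wnt2b* in embryo 2. *Wnt9b* ranged from 0.439 to 2.07 CPM in the embryos against 0.267 and 0.281 CPM (log2 fold change 1.99, edgeR adjusted p = 0.0714) and was called without embryos 1 and 4 (log2 fold change 2.32). *Wnt7a* summed to 41 counts over the 7 embryos and 2 over the 2 adults, a ratio of 9.78 with an exact 95% counting interval of 2.54 to 83.5. In the embryos *Wnt3a* had 11 counts, *Wnt8a* 3, *Wnt8b* 9 and *Wnt10b* 12, and in the adults 4, 0, 17 and 24; *Wnt1* and the inhibitor *Dkk4* had none. Ligand genes lie side by side at 3 more places: *Wnt3a* and *Wnt9a*, *Wnt9b* and *Wnt3*, and *Wnt10b* and *Wnt1*. *Wnt9a* was well counted in every library while its neighbour *Wnt3a* was at 0 in 5 embryos, and both genes of the other 2 places were low or without counts at both stages.

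**Figure D2:**
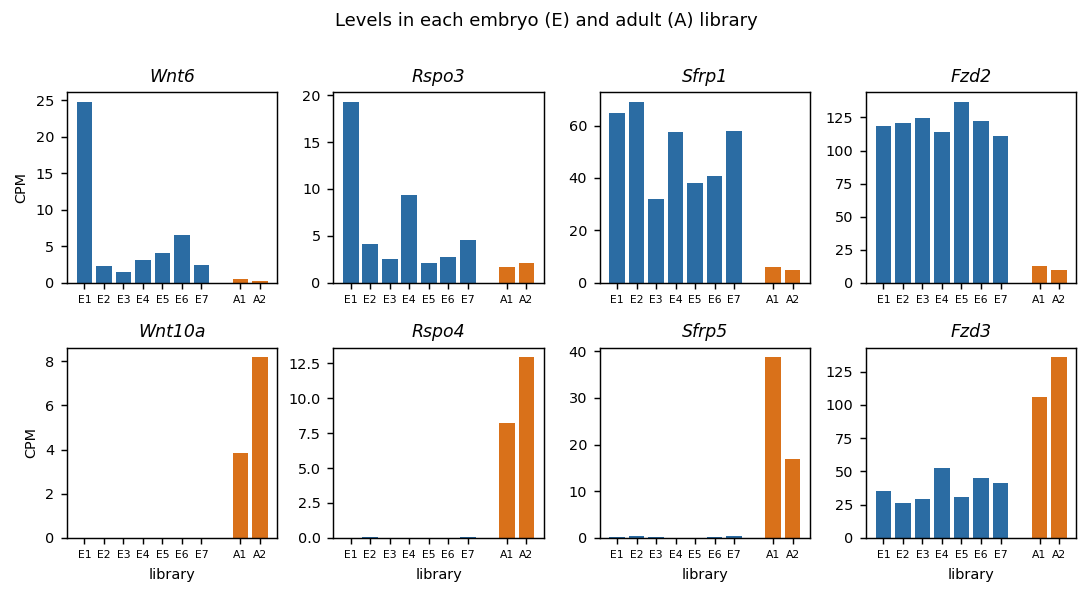
Level in CPM of 8 members in each embryo (E1 to E7) and adult (A1, A2) library; bars start at 0 and each panel has its own axis. The upper row shows genes with their tallest bar in an embryo and the lower row genes with their tallest bar in an adult, with *Wnt10a* at 0 in every embryo.

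The stretch of 250 bases before the start site is shown for called members at the ends of the comparison that have an entry in the RefSeq promoter table (GRCm38.p6): *Wnt6* and *Wnt11* for the embryo, and *Rspo4* and *Sfrp5* for the adult. The windows are chr1:74771642-74771891, plus strand (*Wnt6*), chr7:98834862-98835111, plus strand (*Wnt11*), chr2:151842677-151842926, plus strand (*Rspo4*) and chr19:42202253-42202502, minus strand (*Sfrp5*). They are read 5′ to 3′ on the strand of the gene, and capitals mark cores of the kind recognised by Tcf/Lef factors: CTTTGAA first, then CTTTGAT, then CTTTGTA and last CTTTGTT were searched on both strands.
Wnt6: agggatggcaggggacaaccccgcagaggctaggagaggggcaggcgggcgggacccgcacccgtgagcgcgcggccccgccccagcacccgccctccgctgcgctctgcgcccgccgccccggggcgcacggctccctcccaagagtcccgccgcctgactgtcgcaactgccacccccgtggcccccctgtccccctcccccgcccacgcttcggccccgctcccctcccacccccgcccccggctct
Wnt11: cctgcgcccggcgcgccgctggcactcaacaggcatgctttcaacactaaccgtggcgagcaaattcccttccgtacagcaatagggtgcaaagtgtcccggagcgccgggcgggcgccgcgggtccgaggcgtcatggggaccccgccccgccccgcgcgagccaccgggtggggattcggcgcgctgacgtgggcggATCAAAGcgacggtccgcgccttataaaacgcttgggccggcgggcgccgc
Rspo4: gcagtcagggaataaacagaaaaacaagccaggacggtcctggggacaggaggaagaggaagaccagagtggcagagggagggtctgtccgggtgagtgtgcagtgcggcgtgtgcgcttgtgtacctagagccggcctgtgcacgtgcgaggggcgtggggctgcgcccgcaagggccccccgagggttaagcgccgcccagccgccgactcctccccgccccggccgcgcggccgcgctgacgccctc
Sfrp5: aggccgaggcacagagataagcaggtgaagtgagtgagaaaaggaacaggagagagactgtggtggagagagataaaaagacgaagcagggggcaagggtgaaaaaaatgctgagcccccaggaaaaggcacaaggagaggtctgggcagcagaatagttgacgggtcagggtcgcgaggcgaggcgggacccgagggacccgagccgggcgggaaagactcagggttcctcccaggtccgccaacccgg
*Wnt11* has 1 such core, CTTTGAT on the other strand, which starts 51 bases before the start site. The windows of *Wnt6*, *Rspo4* and *Sfrp5* hold none of these cores. Of the 34 of 49 members matched to an entry, 3 hold at least 1 core (*Wnt11*, *Dkk1* and *Fzd7*), against 14.8% of the 32851 windows of all genes, several genes having more than 1 window. The *Dkk1* window is not shown, since its RefSeq start lies 169 bases inside the annotated gene and both of its cores fall within that stretch. The member windows are rich in CG pairs, with a median of 23.5 per window against 6 over all windows; those of *Wnt11*, *Wnt6* and *Rspo4* have 37, 28 and 24 and that of *Sfrp5* has 13. A match of letters is a description of the window and not a measured binding site.

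The leading R-spondin differed between the stages. In the embryo *Rspo3*, *Rspo2* and *Rspo1* made up 58.1%, 26.7% and 15.1% of the R-spondin level per kb of exon on average, with *Rspo3* from 30.2% in embryo 5, where *Rspo2* led, to 88.1% in embryo 1. Without embryos 1 and 4 its mean share was 47.4%. In adults 1 and 2 *Rspo4* made up 83.0% and 85.2%. *Rspo4*, known for its role in nail formation, had 2 counts over the 7 embryos and 801 over the adults, at 8.21 and 13.0 CPM. The ratio of summed adult to summed embryo counts, scaled to the summed library sizes, was 839, with an exact 95% counting interval of 232 to 6943. The other ratios with such an interval were taken the same way. The fold fitted by edgeR for *Rspo4* was 630 (log2 fold change -9.30 ± 0.69 (SE), edgeR adjusted p = 2.61e-07). Only embryos 2 and 7 held a *Rspo4* count, and the call held in every alternative that tested the gene. *Rspo1* was called embryo high at a low level, with 0.0705 to 1.38 CPM in the embryos and 3 counts over both adults, a ratio of 19.9 with an interval of 6.65 to 97.7. That call was lost without adult 1, without adult 2 and with the replicate number as a block, each time by the adjusted p. The log2 fold change of 3.96 was then 3.47, 4.55 and 3.25 (edgeR adjusted p = 0.308 with the block).

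*Rspo3*, an R-spondin that acts in vessels and the limb, was at 2.10 CPM in the lowest embryo, 4.09 at the median and 19.3 in the highest, against 1.72 and 2.14 CPM in the adults (log2 fold change 1.71 ± 0.81 (SE), edgeR adjusted p = 0.0908). It was not called, adult 2 lay above embryo 5, and the difference leaned on embryos 1 and 4, at 19.3 and 9.38 CPM. Without them the log2 fold change was 0.76. *Rspo2* was higher in every embryo than in the adults, at 1.75 to 5.52 against 0.727 and 1.18 CPM, and its log2 fold change of 1.93 stayed just under the threshold of 2 (edgeR adjusted p = 0.0101); after the length and GC correction it was 2.26. It was also called without embryo 3 (2.10), embryo 4 (2.00) or adult 2 (2.30), and without adult 1 (1.60) or with the block (1.91) it missed the adjusted p as well.

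Of the Lgr receptors, which bind R-spondins, *Lgr4* was the most abundant per kb of exon at both stages and *Lgr6* was adult high. *Lgr4* was at 38.1 CPM in the lowest embryo, 52.3 at the median and 108 in the highest, against 42.0 and 47.2 CPM in the adults (log2 fold change 0.41 ± 0.35 (SE), edgeR adjusted p = 0.339). Embryo 7 stood alone at the top and the adults lay within the range of the other embryos. After the length and GC correction the log2 fold change of *Lgr4* was 0.95 and past the adjusted p, at a fold below 4. *Lgr6* was at 2.44 CPM in the lowest embryo, 2.72 at the median and 4.03 in the highest, against 20.4 and 18.1 CPM in the adults (log2 fold change -2.59 ± 0.32 (SE), edgeR adjusted p = 2.25e-05). Both adults lay above every embryo by a wide margin, and *Lgr6* rose from 4.55% of the Lgr level per kb in the embryo to 27.9% and 23.3% in adults 1 and 2. *Lgr5*, a marker of many adult stem cells, was at 1.59 to 4.47 CPM in the embryos and 5.57 and 6.91 CPM in the adults; its log2 fold change of -1.25 (edgeR adjusted p = 0.0256) became 0.03 after the length and GC correction, so no direction is given for it.

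All 10 Frizzled receptors were detected at both stages, and *Fzd2* was the member called. *Fzd2* was at 111 CPM in the lowest embryo, 121 at the median and 137 in the highest, against 12.5 and 9.22 CPM in the adults, a fold of 11.2 (log2 fold change 3.48 ± 0.29 (SE), edgeR adjusted p = 9.87e-07). The 7 embryos lay close together, with a mean of 121 ± 8.34 CPM (SD), and far above both adults. Per kb of exon *Fzd2* led the class in the embryo with 33.1 ± 2.28 CPM (SD, n = 7), 45.1% of the Frizzled total, and fell to 7.32% and 5.40% in adults 1 and 2. The call and its direction were kept in every alternative.

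In the mean of the adults the highest level per kb of exon belonged to *Fzd3*, a receptor of the planar polarity branch with roles in axon growth. *Fzd3* was at 26.5 CPM in the lowest embryo, 35.1 at the median and 52.6 in the highest, against 106 and 136 CPM in the adults (log2 fold change -1.70 ± 0.27 (SE), edgeR adjusted p = 1.59e-04). Both adults lay above every embryo, but the fold stayed under 4, and after the correction for exon length and GC content the log2 fold change was 0.03, so no direction is given for it. It made up 17.8% and 22.8% of the Frizzled level per kb in adults 1 and 2, and in adult 1 *Fzd7* was above it with 18.7%. The annotated exons of *Fzd3* cover 12804 bases, more than those of any other member. *Fzd4* was past the adjusted p on the adult side (log2 fold change -1.05, -0.44 after the correction), and *Fzd6*, *Fzd9* and *Fzd10* on the embryo side (log2 fold changes 1.01, 1.49 and 1.85). *Fzd1*, *Fzd5*, *Fzd7* and *Fzd8* did not pass the test, with log2 fold changes between -0.48 and 1.02. Embryo 1 was the lowest embryo for *Fzd8*, which was past the adjusted p without embryos 1 and 4 (log2 fold change 1.27) and after the correction (1.24).

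**Figure D3:**
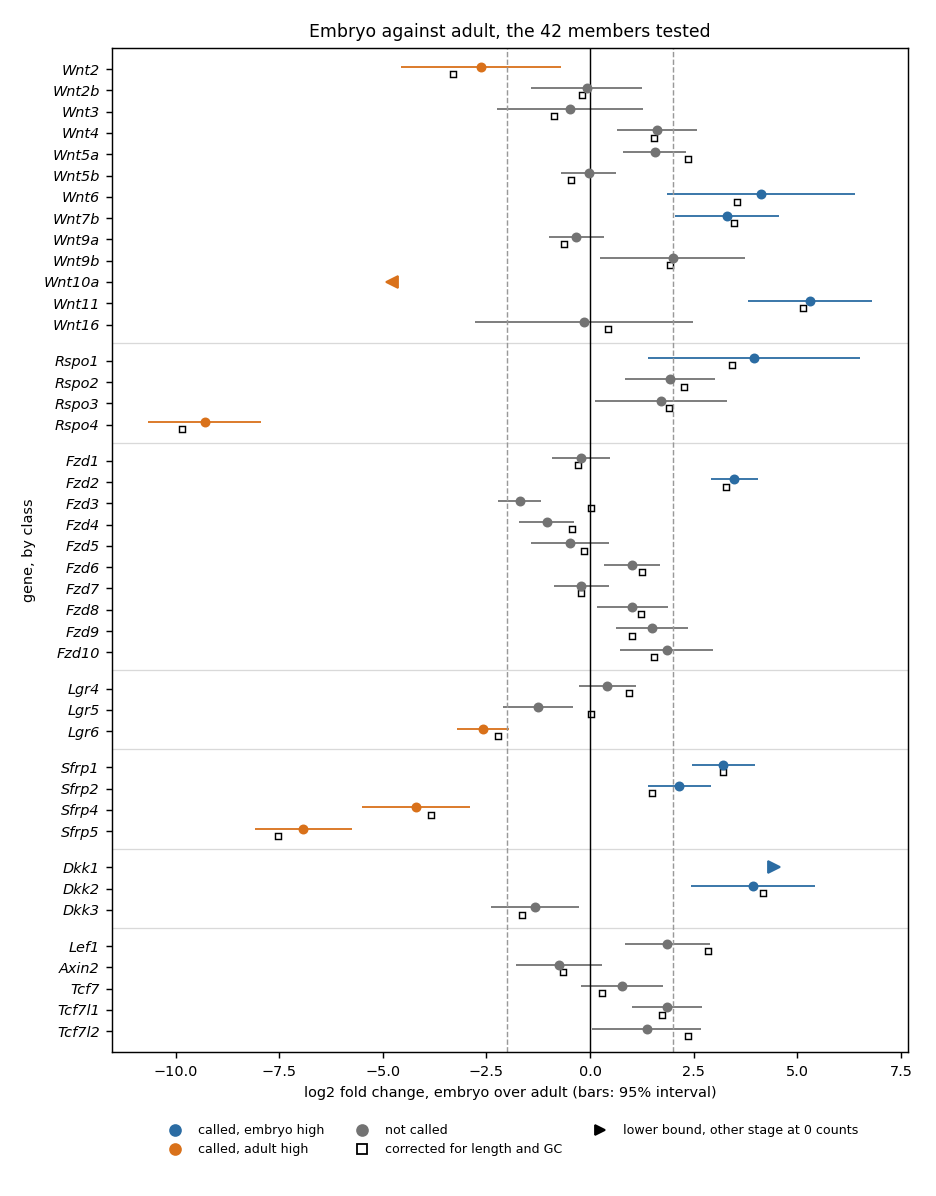
Log2 fold change of embryo over adult for the 42 tested members, by class. Bars show an approximate 95% interval, taken from the SE with a normal approximation and unadjusted for the number of genes. Dashed lines mark a fold of 4 and open squares the value after correction for exon length and GC content. Triangles mark the lower bound of genes with no count in a stage. Calls of both directions appear among the ligands, R-spondins and Sfrp genes, and the squares of *Fzd3* and *Lgr5* fall near 0.

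*Sfrp1* and *Sfrp2*, which share a Frizzled-like domain that binds Wnt ligands, were embryo high. *Sfrp1* was at 31.9 CPM in the lowest embryo, 57.7 at the median and 69.2 in the highest, against 6.08 and 5.002 CPM in the adults (log2 fold change 3.21 ± 0.39 (SE), edgeR adjusted p = 2.09e-05). Its lowest embryo lay far above both adults, and its call was kept in every alternative. *Sfrp2* was at 9.11 CPM in the lowest embryo, 14.8 at the median and 17.5 in the highest, against 3.22 and 2.81 CPM in the adults (log2 fold change 2.16 ± 0.39 (SE), edgeR adjusted p = 4.66e-04). The stages did not overlap for *Sfrp2* either, but its log2 fold change was 1.49 after the length and GC correction, 1.94 with library size alone and 1.88 with reads counted without regard to strand, which ended the call each time. An antisense gene, *Gm26771*, overlaps 16.1% of the *Sfrp2* exons on the opposite strand; the counts used here respect strand.

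*Sfrp5* and *Sfrp4* were adult high. *Sfrp5*, an inhibitor known from foregut and fat tissue, was at 0 CPM in the lowest embryo, 0.220 at the median and 0.439 in the highest, against 38.8 and 16.8 CPM in the adults (log2 fold change -6.92 ± 0.60 (SE), edgeR adjusted p = 1.16e-06). No embryo came near the adults, which differed from each other; without adult 1 the log2 fold change was -6.23. *Sfrp4*, linked to bone and to endocrine tissues, was at 0 to 0.362 CPM in the embryos and 6.15 and 3.34 CPM in the adults (log2 fold change -4.20). Per kb of exon, *Sfrp1* and *Sfrp2* made up 64.4% and 34.6% of the Sfrp total in the embryo, and *Sfrp5* 82.4% and 73.1% in adults 1 and 2. The class total itself overlapped between the stages, at 12.3 to 24.3 CPM per kb in the embryos against 24.8 and 12.1 in adults 1 and 2.

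*Dkk1* and *Dkk2*, which bind Lrp5 and Lrp6, were embryo high. *Dkk1* had 286 counts over the embryos, 1.34 to 2.28 CPM with a median of 1.68, and no count in either adult. Against a floor of 3 counts per library, taken in the shallower adult, *Dkk1* stood at least 21.6-fold higher in embryos than in adults (edgeR adjusted p = 4.71e-05). The embryos differed little in *Dkk1*, embryos 1 and 4 included. *Dkk2* was at 11.2 CPM in the lowest embryo, 20.8 at the median and 69.8 in the highest, against 2.76 and 0.871 CPM in the adults (log2 fold change 3.93 ± 0.76 (SE), edgeR adjusted p = 7.81e-04). Every embryo lay above both adults, embryo 1 was highest, and the log2 fold change was 3.36 without embryos 1 and 4, 4.97 without adult 1 and 3.32 without adult 2. *Dkk3*, a divergent family member that is not a typical Lrp blocker, is named because it made up 93.1% and 97.7% of the Dkk level per kb in the adults, which was seen after the values were known. In the embryos *Dkk2* made up 57.1% and *Dkk3* 36.1% on average, but 46.1% and 46.7% without embryos 1 and 4, and *Dkk3* led in embryos 2 and 5. *Dkk3* was at 2.20 CPM in the lowest embryo, 13.4 at the median and 23.7 in the highest, against 33.9 and 33.2 CPM in the adults (log2 fold change -1.32 ± 0.54 (SE), edgeR adjusted p = 0.0544). Both adults lay above every embryo, and embryos 1 and 4 were the lowest. The adjusted p missed the threshold with all libraries; without embryos 1 and 4 the log2 fold change was -0.95 and passed it (edgeR adjusted p = 0.0255, 0.0116 to 0.168 over all alternatives), as did the value of -1.65 after the length and GC correction, both at folds below 4.

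**Figure D4:**
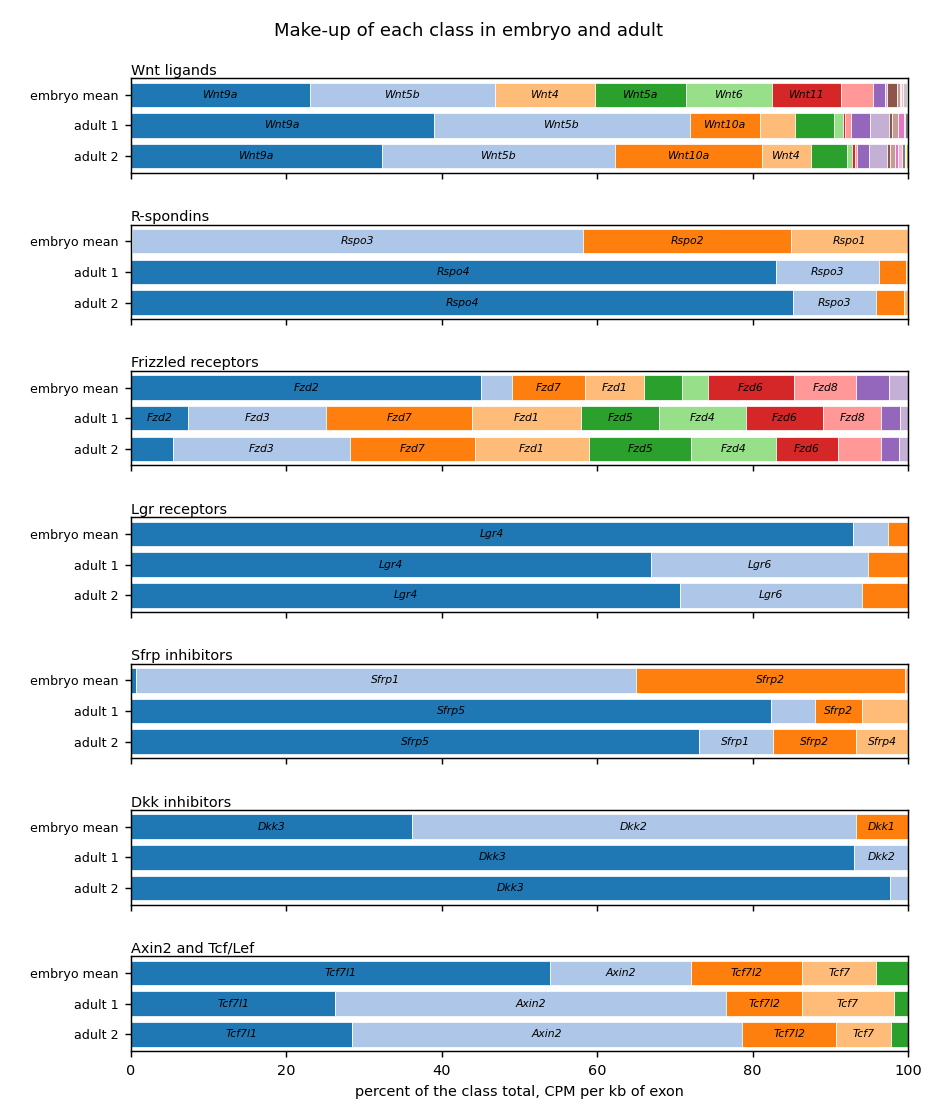
Make-up of each class as percent of its summed level in CPM per kb of exon, for the mean of the 7 embryos and for adults 1 and 2; segments above 6% carry the gene name. *Rspo4*, *Sfrp5* and *Dkk3* fill most of their class in both adults, while *Rspo3*, *Sfrp1* and *Dkk2* lead the mean of the embryos, *Dkk2* only with embryos 1 and 4 included.

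None of the 5 intracellular members was called; *Lef1* and *Tcf7l1* were past the adjusted p on the embryo side. *Tcf7l1*, which mostly represses Wnt targets and had the highest level per kb in the embryo, was at 17.0 CPM in the lowest embryo, 34.4 at the median and 51.8 in the highest, against 9.52 and 8.82 CPM in the adults (log2 fold change 1.86 ± 0.43 (SE), edgeR adjusted p = 0.00249). Every embryo lay above both adults at a fold of 3.63. *Axin2*, a scaffold of the beta-catenin destruction complex that is itself induced by canonical signalling, had the highest level per kb in the adult. It was at 3.22 CPM in the lowest embryo, 9.95 at the median and 26.6 in the highest, against 25.6 and 21.9 CPM in the adults (log2 fold change -0.75 ± 0.53 (SE), edgeR adjusted p = 0.244). The adults lay within the embryo range, which was wide: embryos 3, 5 and 7 were at 19.4, 26.6 and 20.8 CPM and embryos 1 and 4 were lowest. Without those the log2 fold change was -0.43. Per kb of exon *Axin2* was at 2.55 ± 1.51 CPM in the embryos (SD, n = 7) and 4.31 ± 0.479 in the adults (SD, n = 2).

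*Lef1*, an activator of Wnt targets, was at 2.52 to 7.92 CPM in the embryos and 1.48 and 1.52 CPM in the adults, with a log2 fold change of 1.87 (edgeR adjusted p = 0.00900) that became 2.84 and was called after the length and GC correction. *Tcf7l2*, the main Tcf factor of the gut, was at 9.42 to 59.5 CPM in the embryos and 7.92 and 8.46 CPM in the adults (log2 fold change 1.36, edgeR adjusted p = 0.102). Embryos 1 and 4 carried its highest values, 59.5 and 31.7 CPM, and without them the log2 fold change was 0.50; after the length and GC correction of all libraries it was 2.36 and was called. *Tcf7* overlapped between the stages, at 2.26 to 5.27 against 2.86 and 1.46 CPM.

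Among the tested members, embryo 1 was the highest embryo for *Wnt4*, *Wnt5b*, *Wnt6*, *Wnt16*, *Rspo3*, *Lgr5*, *Lgr6*, *Dkk2*, *Tcf7*, *Tcf7l1* and *Tcf7l2*, and the lowest for *Wnt2b*, *Wnt5a*, *Wnt9a*, *Wnt9b*, *Fzd5*, *Fzd6*, *Fzd8*, *Fzd9*, *Sfrp4*, *Dkk3* and *Axin2*. Embryo 4 came next below it for *Wnt4*, *Rspo3*, *Lgr5*, *Dkk2* and *Tcf7l2*. None of the 15 called members lost its call when both libraries were left out. The summed erythroid level reached 134950 and 175730 CPM in these 2 embryos and at most 15579 CPM in the others; *Hbb-y* was the most abundant of the 5 genes in the embryos and *Hba-a1* in the adults, and none was at 0 in a group. The part of blood cells in these values was not tested.

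**Figure D5:**
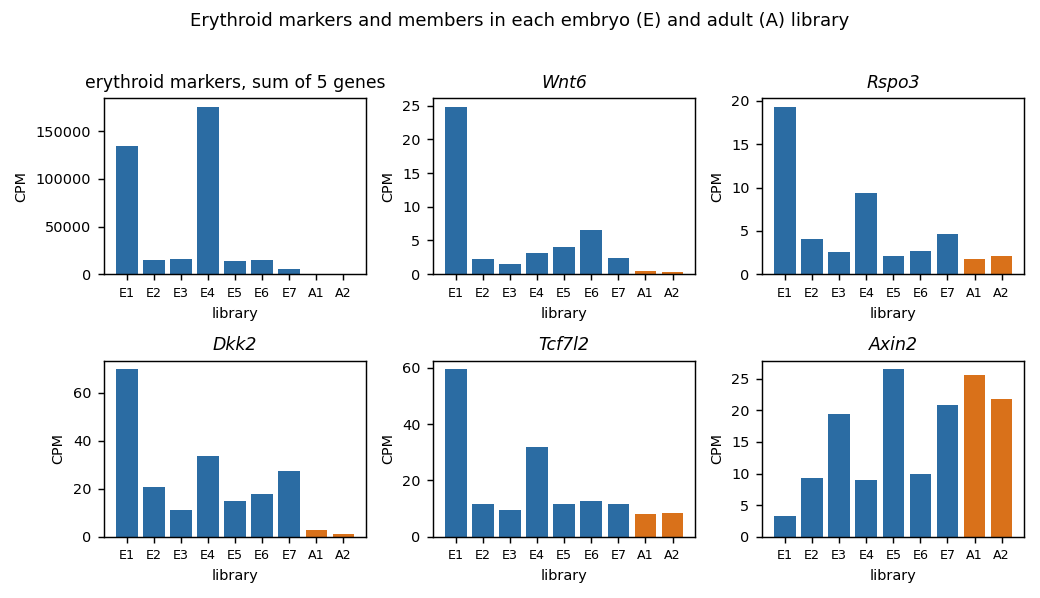
Summed CPM of the 5 erythroid markers and CPM of *Wnt6*, *Rspo3*, *Dkk2*, *Tcf7l2* and *Axin2* in each embryo (E1 to E7) and adult (A1, A2) library; each panel has its own axis, from 0. Embryos 1 and 4 hold the tall erythroid bars and the highest bars of *Rspo3*, *Dkk2* and *Tcf7l2*, and embryo 1 the lowest embryo bar of *Axin2*.

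A list of 56 other Wnt pathway genes was read beside the members. Of the 54 that were tested, 6 were embryo high and 4 adult high (11.1% and 7.41%, beside 11.3% and 14.6% of all tested genes), with a median log2 fold change of 0.37; the ligand hydrolase *Notum* and the Dkk receptor *Kremen2* were not tested. The embryo high genes were *Sostdc1*, *Frzb*, *Nkd1*, *Nkd2*, *Wif1* and *Sp5*. *Sostdc1*, a secreted inhibitor of Wnt and BMP signals, was at 21.6 CPM in the lowest embryo, 27.2 at the median and 37.7 in the highest, against 0.969 and 0.787 CPM in the adults (log2 fold change 5.01 ± 0.40 (SE), edgeR adjusted p = 7.41e-07). *Frzb*, a relative of the Sfrp proteins, was at 4.30 CPM in the lowest embryo, 11.3 at the median and 28.7 in the highest, against 0.630 and 0.281 CPM in the adults (log2 fold change 4.69 ± 0.78 (SE), edgeR adjusted p = 2.56e-04). No embryo overlapped the adults in either gene, and *Frzb* was at 5.36 without adult 1. *Nkd1* and *Nkd2* dampen signalling at Dishevelled. *Nkd1* was at 10.4 CPM in the lowest embryo, 14.5 at the median and 20.1 in the highest, against 2.96 and 4.33 CPM in the adults (log2 fold change 2.00 ± 0.39 (SE), edgeR adjusted p = 7.56e-04), and *Nkd2* at 4.39 CPM in the lowest embryo, 7.61 at the median and 18.3 in the highest, against 1.89 and 2.11 CPM in the adults (log2 fold change 2.12 ± 0.54 (SE), edgeR adjusted p = 0.00458). Both log2 fold changes were close to the threshold of 2 and below it without embryo 2 (1.91 and 1.82). Without adult 1, *Nkd1* was at 1.74 and *Nkd2* missed the adjusted p (edgeR adjusted p = 0.0536, 4.52e-05 to 0.0536 over all alternatives). *Nkd1* was also lost without embryo 1 (1.98), in the DESeq2 test (1.97), with DESeq2 size factors (1.97), with at least 10 counts in every library (1.94) and after the length and GC correction (1.95). With library size alone both were lost (1.79 and 1.92), as in the test against a fold of 4. The ligand-binding inhibitor *Wif1* and the target gene *Sp5* were called at low level, up to 3.03 and 1.58 CPM, and overlapped between the stages. *Wif1*, at a log2 fold change of 2.42 in full, missed the adjusted p and was lost without adult 1 (2.21) or adult 2 (2.62). It was also lost after the length and GC correction (1.91) and with the replicate number as a block (1.35, edgeR adjusted p = 0.527). *Sp5* had 2 counts over the adults, a ratio of 31.0 with an interval of 8.41 to 259, and was lost without adult 1, without adult 2 and with the block, with fitted log2 fold changes of 7.17, 3.77 and 3.40 against 4.62 in full. The test against a fold of 4 called neither.

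The adult high genes were *Celsr3* and *Prickle2*, which act in planar cell polarity, *Rnf43*, a ligase that removes Frizzled proteins and is held back by R-spondins, and *Apc*, a scaffold of the beta-catenin destruction complex. *Celsr3* was at 3.59 CPM in the lowest embryo, 9.38 at the median and 13.2 in the highest, against 85.7 and 89.9 CPM in the adults (log2 fold change -3.29 ± 0.37 (SE), edgeR adjusted p = 1.20e-05). *Prickle2* was at 6.08 CPM in the lowest embryo, 10.0 at the median and 15.2 in the highest, against 72.9 and 73.8 CPM in the adults (log2 fold change -2.89 ± 0.30 (SE), edgeR adjusted p = 5.58e-06). *Rnf43* was at 1.79 CPM in the lowest embryo, 4.17 at the median and 5.65 in the highest, against 18.8 and 17.5 CPM in the adults (log2 fold change -2.22 ± 0.38 (SE), edgeR adjusted p = 3.23e-04). Both adults lay above every embryo in these genes. After the length and GC correction *Celsr3* was at -2.32 and *Prickle2* at -2.07, and both were still called. *Apc* was at 9.66 CPM in the lowest embryo, 11.6 at the median and 28.1 in the highest, against 93.2 and 87.6 CPM in the adults (log2 fold change -2.55 ± 0.36 (SE), edgeR adjusted p = 6.54e-05). Its log2 fold change shrank to -0.82 after the length and GC correction, as that of *Rnf43* did to -1.89, and neither was then called. *Ctnnb1*, which encodes beta-catenin, was at 574 to 1369 CPM in the embryos and 563 and 565 CPM in the adults, a log2 fold change of 0.86 (edgeR adjusted p = 0.0472). The co-receptor *Lrp6* was past the adjusted p on the adult side with a log2 fold change of -1.89, -0.45 after the correction, and *Lrp5* did not pass (-0.42).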

How the data were processed

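Per the labels and the study's methods, the authors trimmed the read pairs of a strand-specific library with Trimmomatic 0.39, aligned them with STAR 2.7.5b to GRCm38 and deposited raw counts of read pairs per gene; versions are those of the submitters' processing notes. The counts on the strand that the kit marks were used. Rows naming no gene (unmapped, multimapping, no feature, ambiguous) held 16.0% to 40.3% of read pairs and stayed out of library sizes and tests. Genes were named from GENCODE M21. All 9 libraries were fitted with stage as the only term in edgeR 4.0.16 (TMM, quasi-likelihood F test, R 4.3.3), over the 19371 genes whose counts averaged 5 or more over the 9 libraries, and p-values were adjusted by Benjamini-Hochberg. P-values rest on 7 embryos and 2 adults. Each SE was worked back from the fitted coefficient and its F statistic and is approximate. Intervals drawn from it assume a normal distribution and may be too narrow with so few libraries. Full values are given, within each class, for called members with a mean of at least 5 CPM at either stage and for the most abundant member per kb of exon at each stage; of the other pathway genes, for called ones of that level. Other genes described, and the promoters shown, were chosen after values were seen. The members and lists were chosen with earlier results of these data known. Alternatives were DESeq2 1.42.0 (Wald test, or its size factors in edgeR), library size alone, other count filters, unstranded counts, other fold thresholds, a test against a fold of 4, a spline correction for exon length and GC content, the replicate number as a block, leaving out each library, and leaving out embryos 1 and 4.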

Additional observations from a re-analysis of the deposited data

Results flagged for a closer look

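In 6 of the 41 tested members that varied among the embryos (14.6%), a single embryo lay far from the other 6: its gap to the nearest of them exceeded 0.568 of the range of all 7, Dixon's 95% critical value. Chance alone gives this in about 1 of 20 groups of normally distributed values. CPM values need not be normal, least of all at low counts, so that rate is only a guide. Of all tested genes, 12% met it. Embryo 1 was high for *Wnt6* (24.8 CPM, others up to 6.48), *Wnt16* (1.02 CPM, others up to 0.289), *Rspo3* (19.3 CPM, others up to 9.38) and *Dkk2* (69.8 CPM, others up to 33.6). Embryo 7 was high for *Fzd4* (29.1 CPM, others up to 17.7) and *Lgr4* (108 CPM, others up to 65.7). The adults, with 2 libraries, allow no such test.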

How the results depend on the processing

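Of the 15 called members, 11 kept their call in every alternative that tested them under the same fold rule; *Wnt2*, *Wnt6*, *Rspo1* and *Sfrp2* lost it in at least 1. The test against a fold of 4 ended the calls of these 4 and of *Wnt7b* and *Lgr6*. No called member changed sign. The main comparison called 9 members embryo high and 6 adult high, 6 and 4 other pathway genes, and 5001 of all genes. With at least 10 counts in every library, which leaves out genes absent at a stage, these were 5, 1, 3, 4 and 2642. With a fold above 2 they were 17, 9, 15, 10 and 8960, with no fold threshold 17, 9, 19, 10 and 9948, and with the fold tested against 4 they were 5, 4, 2, 2 and 1744. The length and GC correction left 2 adult high pathway genes and gave 12 embryo high members, with 4209 of all genes called; the cause was not tested. Leaving out 1 library at a time gave 7 to 12 and 5 to 6 members, and 3 (without adult 1) to 7 embryo high pathway genes; a lone adult is then assumed to vary like the embryos. Library size alone moved the median of all genes by -0.22 (log2). The numbers pair no animals, since embryos and adults are different mice. Same-numbered embryos and adults had correlations of 0.0331 and 3.03e-04 of their deviations from the stage means. With 2 adults the adult deviations mirror each other, so these correlations cannot test a pairing. With the replicate number as a block (embryos and adults 1 and 2), 10 members were embryo high (*Rspo1* lost, *Rspo3* and *Tcf7l1* added), 8 adult high (*Axin2* and *Dkk3* added), and 4103 genes were called. Members without a call turned sign: *Wnt2b* (-0.41 to 0.31 with 1 library left out, 0.20 without embryos 1 and 4), *Wnt5b* (-0.14 to 0.0911, and 0.40 with the block), *Wnt16* (-0.95 to 0.77, and 0.42 after the length and GC correction), and, after that correction, 2 that were past the adjusted p on the adult side, *Fzd3* (0.0287) and *Lgr5* (0.0303); the cause was not tested. With 2 adults, a low adult value is known from 2 libraries only, and levels of members with few counts, such as *Wnt2*, *Wnt7a* and *Rspo1*, are limited by depth.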
